A study of Mus musculus with 12 samples.

Results

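P2ry12, Tmem119, Cx3cr1, Siglech, Sall1, Gpr34, Csf1r, P2ry13 and Olfml3 are genes by which resting microglia of the brain and spinal cord are recognised, and they are described here as the homeostatic microglia genes. They were taken by symbol from the table of counts in mouse spinal cord. The 9 genes are a small part of the 45906 genes listed, and all 9 were among the 20155 that passed the filter on low counts. RNA was measured in 12 libraries, each from the spinal cord of 1 mouse at 7 months of age, with 3 mice in each of 4 genotypes. Plekhg5+/+ mice had intact Plekhg5 and no transgene (wild type below), Plekhg5-/- mice lacked Plekhg5, Plekhg5+/+ SOD1-G93A mice carried the transgene for the human SOD1 protein with the G93A change found in familial amyotrophic lateral sclerosis, and Plekhg5-/- SOD1-G93A mice combined both (double mutants below). The mice were on a C57BL/6 background, the transgenic line is one with few copies of the transgene. The labels name no deletion of Plekhg5 limited to 1 cell type and the RNA is that of the whole spinal cord, so no comparison isolates microglia.

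Microglia are the resident macrophages of the central nervous system. In the healthy tissue they hold a set of surface receptors and transcription factors that depends on signals from neurons and glia, above all TGF-beta, Csf1 and Il34. When microglia react to injury or neurodegeneration, they commonly lower this set and raise another, called the disease-associated genes, while their number often increases. In RNA of a whole spinal cord, fewer cells of a type and less RNA per cell cannot be told apart.

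The libraries held between 30415643 and 38743628 counts. Plekhg5 was at 22.9 ± 3.08 CPM (counts scaled to a common library size; mean ± SD, n = 3) in wild type and 22.4 ± 2.19 CPM in Plekhg5+/+ SOD1-G93A mice, against 3.98 ± 0.712 CPM in Plekhg5-/- mice and 4.26 ± 0.413 CPM in double mutants. The human SOD1 cDNA was at 4993 ± 612 CPM and 5001 ± 97.1 CPM in the SOD1-G93A groups and at 0.153 to 5.47 CPM in the libraries without the transgene, so both alleles followed the labels. Y-linked transcripts were present in 3, 2, 2 and 1 of the 3 libraries of the wild type, Plekhg5-/-, Plekhg5+/+ SOD1-G93A and double mutant groups, so sex was not balanced. One library stood apart from the others of its genotype: in the first Plekhg5+/+ SOD1-G93A library, 12 genes shared by myeloid cells (C1qa, C1qb, C1qc, Aif1, Itgam, Ptprc, Laptm5, Ctss, Ly86, Fcer1g, Cd53 and Cyth4, the myeloid reference below) together had 3.95 times their mean wild-type CPM, against 1.89 and 1.99 times in the other 2. Values without that library are given beside the results that it moved most.

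P2ry12 and P2ry13 are neighbours on chromosome 3 of GRCm38.p6, the build of the deposited annotation. P2ry13 spans 59207892 to 59210882 and P2ry12 spans 59216271 to 59262985, both on the minus strand, with 5388 bases between them. Both lie within Med12l, which is on the opposite strand and was counted separately because counting used strand. Olfml3 is on the same chromosome from 103735394 to 103738001. Of the other members, which are on separate chromosomes, Tmem119 is on chromosome 5 (113793729 to 113800396), Siglech on chromosome 7 (55768154 to 55779448), Sall1 on chromosome 8 (89027242 to 89044162), Cx3cr1 on chromosome 9 (120048683 to 120068296) and Gpr34 on the X chromosome (13622650 to 13640859). Reads shared with another gene were counted as fractions. Counts that were not whole occurred in Csf1r in 6 libraries, in Sall1 in 5 and in Cx3cr1 and Siglech in 1 each. Fractions that add up to a whole count are not seen in this way.

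RefSeq promoter sequences on GRCm38.p6 were found for 6 of the 9 members, as 8 windows of 300 bases, 3 of them for Sall1. The windows were searched on both strands for the PU box GAGGAA, the short core that the myeloid transcription factor PU.1 (Spi1) recognises. It occurred in 2 of the 8 windows, those of P2ry13 and Siglech, and in 28.3% of all 32851 promoter windows. The interferon response motif, GAAA repeated after any 2 bases, occurred in 0 of the 8 and in 3.44% of all. The 2 promoters that hold the PU box and that of the neighbouring P2ry12, which does not, are shown from 100 bases before to 10 bases after the first transcribed base, with the PU box or its reverse complement in capitals. P2ry13 is chr3:59210873-59210982 (minus strand), P2ry12 is chr3:59262976-59263085 (minus strand) and Siglech is chr7:55768084-55768193 (plus strand).
P2ry13: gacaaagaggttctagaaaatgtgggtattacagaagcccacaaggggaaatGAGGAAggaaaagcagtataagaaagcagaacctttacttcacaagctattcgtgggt
P2ry12: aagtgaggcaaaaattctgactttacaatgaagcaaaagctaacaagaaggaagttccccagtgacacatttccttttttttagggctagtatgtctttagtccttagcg
Siglech: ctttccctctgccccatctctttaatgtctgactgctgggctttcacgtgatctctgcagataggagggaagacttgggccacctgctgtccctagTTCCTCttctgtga
The box starts at position -48 in P2ry13 and at position -4 in Siglech, counted from the first transcribed base. These matches describe letters and do not show binding.

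In wild-type spinal cord, levels were compared per length, as RPKM, reads scaled to exon length and library size. Csf1r, the receptor for Csf1 and Il34 on which microglial survival depends, had the highest level of the 9 at 25.5 ± 0.889 RPKM. Olfml3, a secreted extracellular matrix protein, at 12.0 ± 0.192 RPKM, P2ry12 at 12.0 ± 0.577 RPKM and Cx3cr1 at 11.7 ± 0.728 RPKM overlapped in their libraries. Sall1, the zinc finger transcription factor of microglial identity, was at 10.04 ± 0.120 RPKM and overlapped with Tmem119, a membrane protein, at 9.16 ± 1.74 RPKM. P2ry13 at 4.23 ± 0.576 RPKM and Siglech at 3.77 ± 0.277 RPKM overlapped, and Gpr34 at 1.49 ± 0.175 RPKM was below every other member in every wild-type library. The spread between wild-type mice also differed, from a coefficient of variation of 1.19% for Sall1 to 19.0% for Tmem119.

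**Figure D1:**
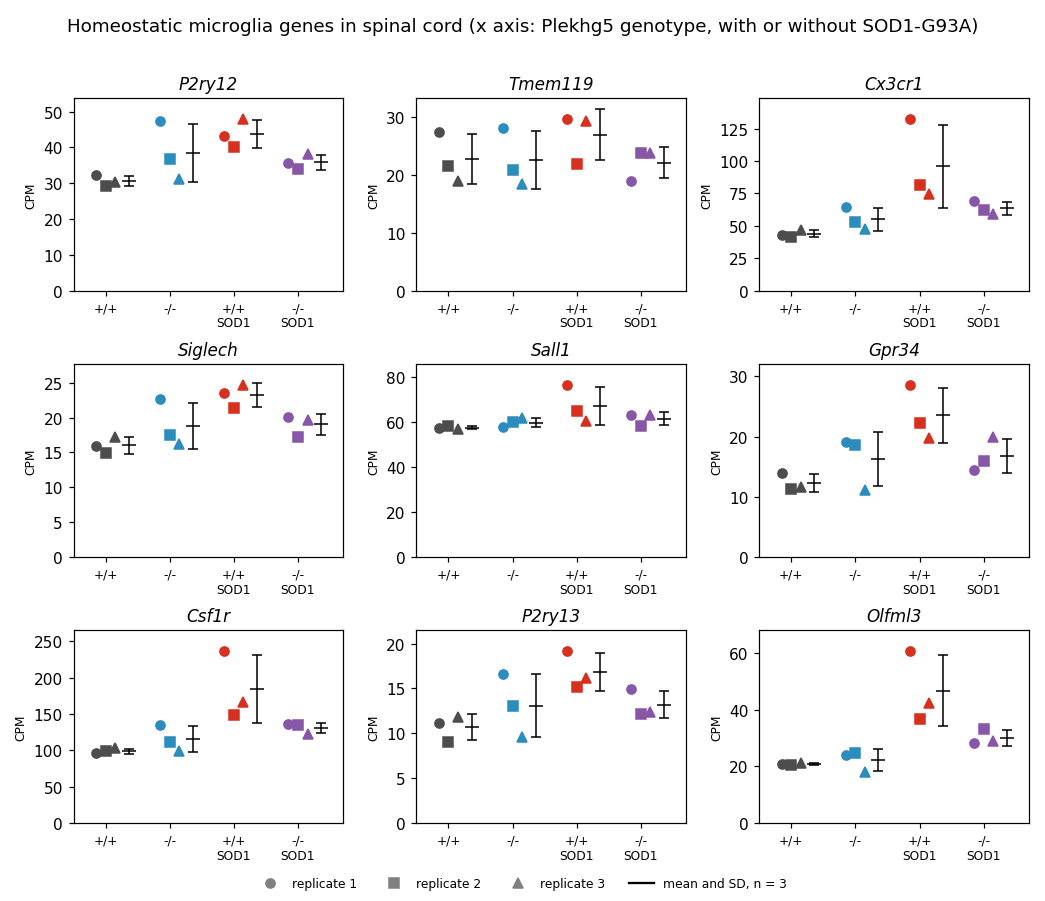
CPM (y axis) of the 9 homeostatic microglia genes in each of 12 spinal cord libraries, by genotype (x axis; symbols mark the replicate number, bars the mean and SD of 3 mice). Mean CPM was highest in Plekhg5+/+ SOD1-G93A mice for 9 of 9 genes and lowest in wild type for 8 of 9, Tmem119 being the exception.

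The first comparison asks how the homeostatic genes stood in SOD1-G93A mice with intact Plekhg5. These genes were not lower there in whole tissue: 6 of the 9 rose, namely Olfml3, Cx3cr1, Gpr34, Csf1r, Siglech and P2ry12, by 1.43- to 2.24-fold, and none fell. Across all genes tested, 2.47% passed the same threshold, 422 higher and 76 lower. The median log2 fold change was 0.65 for the 9 genes and -0.00 for all genes tested. In 8 of the 9, every SOD1-G93A library was above every wild-type library, which was the case for 11.6% of all genes.

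Among the receptors, Cx3cr1, which binds the neuronal chemokine Cx3cl1, had 43.0, 41.7 and 47.0 CPM in wild type and 132.69, 81.3 and 74.2 CPM in Plekhg5+/+ SOD1-G93A mice. Each transgenic library was above each wild-type one, and the first was the highest. Its log2 fold change was 1.13 ± 0.188 (standard error), with an adjusted p of 0.0155. Csf1r had 95.6, 98.7 and 102.468 CPM in wild type and 236.695, 148.012 and 166.613 CPM in Plekhg5+/+ SOD1-G93A mice. The groups were apart here too, and the first transgenic library was again the highest. The log2 fold change of Csf1r was 0.89 ± 0.149 (adjusted p = 0.0146).

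Gpr34, a receptor for lysophosphatidylserine, had 13.9, 11.3 and 11.6 CPM in wild type and 28.6, 22.2 and 19.8 CPM with the transgene. The groups did not overlap, and the log2 fold change was 0.94 ± 0.201 (adjusted p = 0.0340). P2ry12, the ADP receptor that steers microglial processes to sites of damage, had 32.2, 29.4 and 30.3 CPM against 43.1, 40.1 and 48.1 CPM. All 3 transgenic libraries were above all 3 wild-type libraries, and here the third was the highest. With a log2 fold change of 0.52 ± 0.124, P2ry12 was just inside the threshold (adjusted p = 0.0493). Its neighbour P2ry13, also an ADP receptor, had 11.2, 9.06 and 11.9 CPM in wild type and 19.2, 15.1 and 16.2 CPM in Plekhg5+/+ SOD1-G93A mice. Although the groups did not overlap, its log2 fold change of 0.65 ± 0.175 did not pass (adjusted p = 0.0706), since its standard error was larger than that of P2ry12.

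Siglech, a sialic acid-binding lectin that microglia share with plasmacytoid dendritic cells, had 15.9, 14.9 and 17.2 CPM in wild type and 23.6, 21.3 and 24.7 CPM in transgenic mice. The groups were apart, with a log2 fold change of 0.54 ± 0.118 (adjusted p = 0.0358). Of 8 other genes of plasmacytoid dendritic cells, 6 could be tested and 0 passed with edgeR and 1 with DESeq2, while 3 had an unadjusted p under 0.05. The median log2 fold change of the 6 was 1.33, with 4 positive. The 6 differed widely in level. In wild type, Pacsin1 was at 414 ± 52.5 CPM and Tcf4 at 124 ± 8.82 CPM, and both had negative fold changes. Ccr9, Ly6d and Cox6a2 were at 0.121, 0.172 and 0.357 CPM, so the median of this list says little about these cells. Olfml3 had 20.9, 20.5 and 21.1 CPM in wild type, the narrow range noted above, and 60.7, 36.8 and 42.3 CPM in transgenic mice. Every transgenic library was thus well above wild type, and the log2 fold change of 1.16 ± 0.166 was the highest of the 9 (adjusted p = 0.0125).

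Tmem119 and Sall1 differed least. Tmem119 had 27.4, 21.5 and 19.0 CPM in wild type and 29.7, 21.8 and 29.2 CPM in Plekhg5+/+ SOD1-G93A mice. The groups overlapped, and the log2 fold change of 0.25 ± 0.176 did not pass (adjusted p = 0.496). Sall1 had 57.3, 58.1 and 56.7 CPM against 76.4, 64.7 and 60.1 CPM. Its transgenic libraries were above the wild-type ones, but the first was far above the others, and the log2 fold change of 0.23 ± 0.0785 did not pass (adjusted p = 0.147), and was 0.12 without that first library. Whether the members differed from each other in their response was not tested.

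The calls depend on single libraries more than the fold changes do. Without the first Plekhg5+/+ SOD1-G93A library, 3 members passed, Cx3cr1, Csf1r and Olfml3, with log2 fold changes of 0.82, 0.67 and 0.93, when 1.09% of all genes did. Without the first or the second wild-type library 0 passed, when only 4 and 2 of all genes did. With the fit limited to these 2 genotypes 0 of the 9 passed (adjusted p from 0.0755 to 0.0923 for the 6), 3 of all genes did. With DESeq2, 7 members passed, P2ry13 being added, as did 5.81% of all genes.

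**Figure D2:**
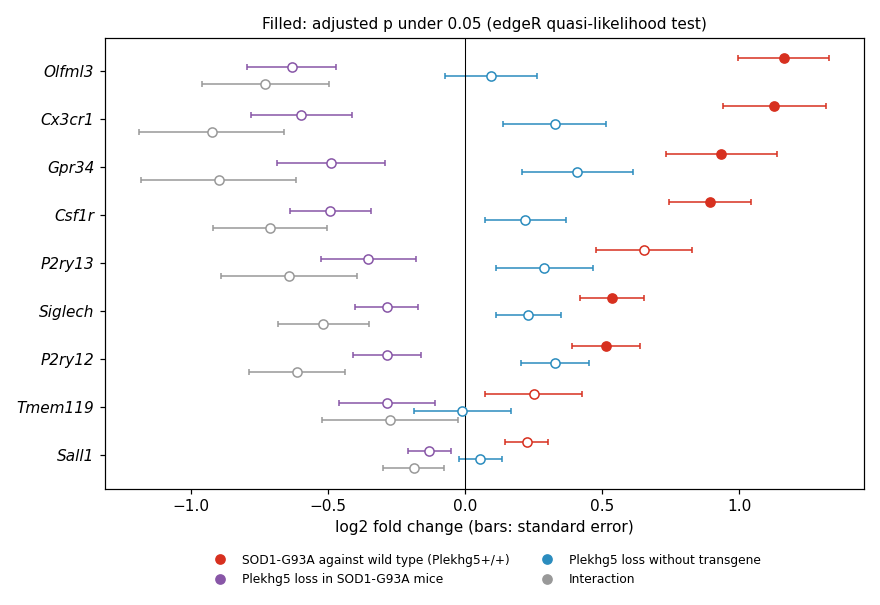
Log2 fold change with its standard error (x axis) of each homeostatic microglia gene (y axis) in 3 comparisons and for the interaction, from edgeR over 12 libraries. Filled circles mark an adjusted p under 0.05, which 6 genes reached for SOD1-G93A against wild type and 0 reached elsewhere.

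The second comparison asks what loss of Plekhg5 did to these genes in SOD1-G93A mice. All 9 had a lower fitted level in double mutants than in Plekhg5+/+ SOD1-G93A mice, with log2 fold changes from -0.63 to -0.13 and a median of -0.35, but 0 of the 9 passed with edgeR (adjusted p from 0.402 to 0.633). Few genes of any kind passed here (7 of 20155, or 0.0347%). At an unadjusted p under 0.05 there were 6 of the 9, against 8.64% of all genes. Without the first Plekhg5+/+ SOD1-G93A library there were 3 of the 9, all 9 were still lower, and the median was -0.28. DESeq2 called 0 members without and 1, Olfml3, with a prior on fold changes, against 0.352% and 0.566% of all genes. In 6 of the 9, all double mutant libraries were below all Plekhg5+/+ SOD1-G93A libraries, against 10% of all genes. The Plekhg5+/+ SOD1-G93A libraries enter this and the first comparison, so the values of the 2 comparisons are not independent.

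Olfml3 had 28.2, 33.3 and 28.8 CPM in double mutants, below the 36.8 to 60.7 CPM of Plekhg5+/+ SOD1-G93A mice and above the 20.5 to 21.1 CPM of wild type. The groups were ordered without overlap, and the log2 fold change on loss of Plekhg5 was -0.63 ± 0.163 (adjusted p = 0.402), or -0.40 without the first Plekhg5+/+ SOD1-G93A library. Cx3cr1 had 69.3, 62.1 and 59.2 CPM in double mutants. These too lay between wild type and Plekhg5+/+ SOD1-G93A, with a log2 fold change of -0.60 ± 0.186 (adjusted p = 0.440), which was -0.29 without the first Plekhg5+/+ SOD1-G93A library. Csf1r had 135.701, 134.15 and 122.125 CPM. It lay between the same groups, with a log2 fold change of -0.49 ± 0.148 (adjusted p = 0.427), or -0.27 without that library.

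P2ry12 had 35.6, 34.0 and 38.1 CPM in double mutants, P2ry13 had 14.9, 12.2 and 12.4 CPM, and Siglech had 20.1, 17.2 and 19.7 CPM. For these 3 genes the double mutants were again below every Plekhg5+/+ SOD1-G93A library and above every wild-type library, with log2 fold changes of -0.29, -0.35 and -0.29 on loss of Plekhg5. Gpr34 had 14.4, 15.9 and 19.9 CPM, the last just above the lowest Plekhg5+/+ SOD1-G93A library, and its log2 fold change was -0.49 ± 0.198 (adjusted p = 0.533), or -0.32 without the first Plekhg5+/+ SOD1-G93A library. Tmem119 with 19.0, 23.6 and 23.7 CPM and Sall1 with 63.0, 57.9 and 62.8 CPM overlapped with wild type and with Plekhg5+/+ SOD1-G93A. Their log2 fold changes were -0.28 ± 0.176 and -0.13 ± 0.0784, the latter -0.027 without that library.

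Against wild type, double mutants were higher in 8 of the 9 members by their fitted log2 fold change (median 0.30, up to 0.53 for Cx3cr1 and Olfml3), and in 7 of the 9 their libraries lay wholly above wild type, against 9.84% of all genes. None of the 9 passed with edgeR (adjusted p from 0.403 to 0.969), 4 had an unadjusted p under 0.05, and DESeq2 called 0. Of all genes, 0.0496% passed with edgeR and 0.308% with DESeq2. When the fit held only these 2 genotypes, Cx3cr1, Csf1r and Olfml3 passed, as did 0.579% of all genes.

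Loss of Plekhg5 without the transgene gave 0 of the 9 with edgeR, 1 at an unadjusted p under 0.05 and 0 with DESeq2. Of all genes, 0.0298% were called with edgeR and 0.179% with DESeq2. The fitted log2 fold change was above 0 in 8 of the 9, with a median of 0.23. This median rested largely on the first Plekhg5-/- library, without which it was 0.084. P2ry12 had 47.3, 36.9 and 31.1 CPM in Plekhg5-/- mice, a log2 fold change of 0.33 ± 0.124 (adjusted p = 0.929), or 0.15 without the first of them. Its first library lay within the range of Plekhg5+/+ SOD1-G93A mice and the third overlapped with wild type. The first Plekhg5-/- library was the highest of its group for 7 of the 9 members and the third the lowest for 8 of the 9, so the members varied together within this group. Gpr34 had 19.1, 18.6 and 11.2 CPM, Csf1r had 134.1, 112.002 and 99.4 CPM, and Olfml3 had 24.0, 24.9 and 17.9 CPM. The third of these libraries was within or below the wild-type range in each of the 3. Cx3cr1, with 64.8, 52.6 and 47.8 CPM, was the only member whose Plekhg5-/- libraries all lay above wild type, which 4.71% of all genes did.

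For the rest, P2ry13 had 16.6, 13.02 and 9.59 CPM in Plekhg5-/- mice, Siglech had 22.6, 17.5 and 16.2 CPM, Tmem119 had 28.1, 20.9 and 18.5 CPM and Sall1 had 57.4, 59.8 and 61.7 CPM. All 4 overlapped with wild type. Within the mice without Plekhg5, the transgene was accompanied by a median log2 difference of 0.04 over the 9 members, which was -0.077 without the third Plekhg5-/- library and 0.17 without the first. Of these, 0 passed with edgeR, 1 had an unadjusted p under 0.05 and DESeq2 called 0, against 0.00496% of all genes called with edgeR and 0.218% with DESeq2. That one was Olfml3, at 0.43 ± 0.165 (adjusted p = 0.841), and its double mutant libraries were all above its Plekhg5-/- libraries.

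The interaction tests whether loss of Plekhg5 acted differently with and without the transgene. It was negative for all 9 members, from -0.92 for Cx3cr1 to -0.19 for Sall1, with a median of -0.64 against -0.01 over all genes. Without the first Plekhg5+/+ SOD1-G93A library it was -0.62 for Cx3cr1 and -0.49 for both Csf1r and Olfml3. The interaction was not particular to the members. It was also negative for all 12 genes of the myeloid reference (median -1.13) and for all 15 disease-associated genes examined below (median -1.23). With edgeR, 0 of the 9 and 0% of all genes passed (adjusted p for the 9 from 0.387 to 0.708). The unadjusted p was under 0.05 for 7 of the 9 and for 9.05% of all genes, and DESeq2 called 102 genes, 0 of them members.

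Summed over the 9 genes, wild type had 318, 305 and 317 CPM, Plekhg5-/- mice 414, 356 and 313 CPM, Plekhg5+/+ SOD1-G93A mice 651, 451 and 481 CPM, and double mutants 400.2, 390 and 387 CPM. The sum was thus 1.44 to 2.08 times the wild-type mean in Plekhg5+/+ SOD1-G93A mice and 1.23 to 1.28 times in double mutants. The myeloid reference, genes expressed in both resting and reactive microglia and in other myeloid cells, moved further. Its sum was 365 to 440 CPM in wild type, 414 to 558 CPM in Plekhg5-/- mice, 782 to 1635 CPM in Plekhg5+/+ SOD1-G93A mice and 551 to 623 CPM in double mutants. All 12 of its genes rose in SOD1-G93A mice with intact Plekhg5 (median log2 fold change 1.38), among them Cd53 at 1.26, Ly86 at 1.51 and Laptm5 at 1.32. With loss of Plekhg5 in SOD1-G93A mice, 0 of the 12 passed with edgeR and all 12 had an unadjusted p under 0.05, with a median of -0.83. DESeq2 called 2 of the 12 lower, and 4 with the prior, against 0.352% and 0.566% of all genes in either direction. Without the first Plekhg5+/+ SOD1-G93A library, all 12 rose again in the first comparison (median 0.99), and the median on loss of Plekhg5 was -0.45.

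Each member was therefore also set against the mean log2 CPM of the 12 reference genes in the same library. Relative to it, all 9 members were lower in Plekhg5+/+ SOD1-G93A than in wild-type mice, with a median log2 difference of -0.66. For 6 of the 9 the groups did not overlap, a two-sided exact permutation p of 0.1, the smallest that 3 against 3 mice allow. Because the reference itself rose, most genes were lower relative to it: 92% of all genes lay apart in this way, and their median difference was -1.31. The members' share was thus below this background, and the median member was lowered less than the median gene, since the members' own levels were higher. Whether the reference rose per cell or with the number of cells was not tested. A lower ratio therefore does not show less RNA of a member per cell.

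By member, Tmem119 was lower by a log2 difference of -1.06 and Sall1 by -1.09, P2ry12 by -0.80, Siglech by -0.78, P2ry13 by -0.66 and Csf1r by -0.45, each without overlap (exact permutation p = 0.1). Gpr34 at -0.39 and Cx3cr1 at -0.23 overlapped (exact permutation p = 0.2 for each), as did Olfml3 at -0.18 (exact permutation p = 0.3). All 9 differences were closer to 0 than the median of all genes, and whether they differed between members was not tested. Per library, the ratio of the summed members to the summed reference was 0.724, 0.837 and 0.721 in wild type and 0.398, 0.577 and 0.582 in Plekhg5+/+ SOD1-G93A mice. Without the first transgenic library the median difference was -0.44.

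In double mutants the same ratio of sums was 0.643, 0.657 and 0.701, between wild type and Plekhg5+/+ SOD1-G93A. Relative to the reference, all 9 members were higher in double mutants than in Plekhg5+/+ SOD1-G93A mice, with a median log2 difference of 0.41. For 4 of the 9 the groups did not overlap, against 76.8% of all genes, whose median was 0.75. Without the first Plekhg5+/+ SOD1-G93A library the median fell to 0.17. Plekhg5-/- mice, at 0.742, 0.709 and 0.757, overlapped with wild type.

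**Figure D3:**
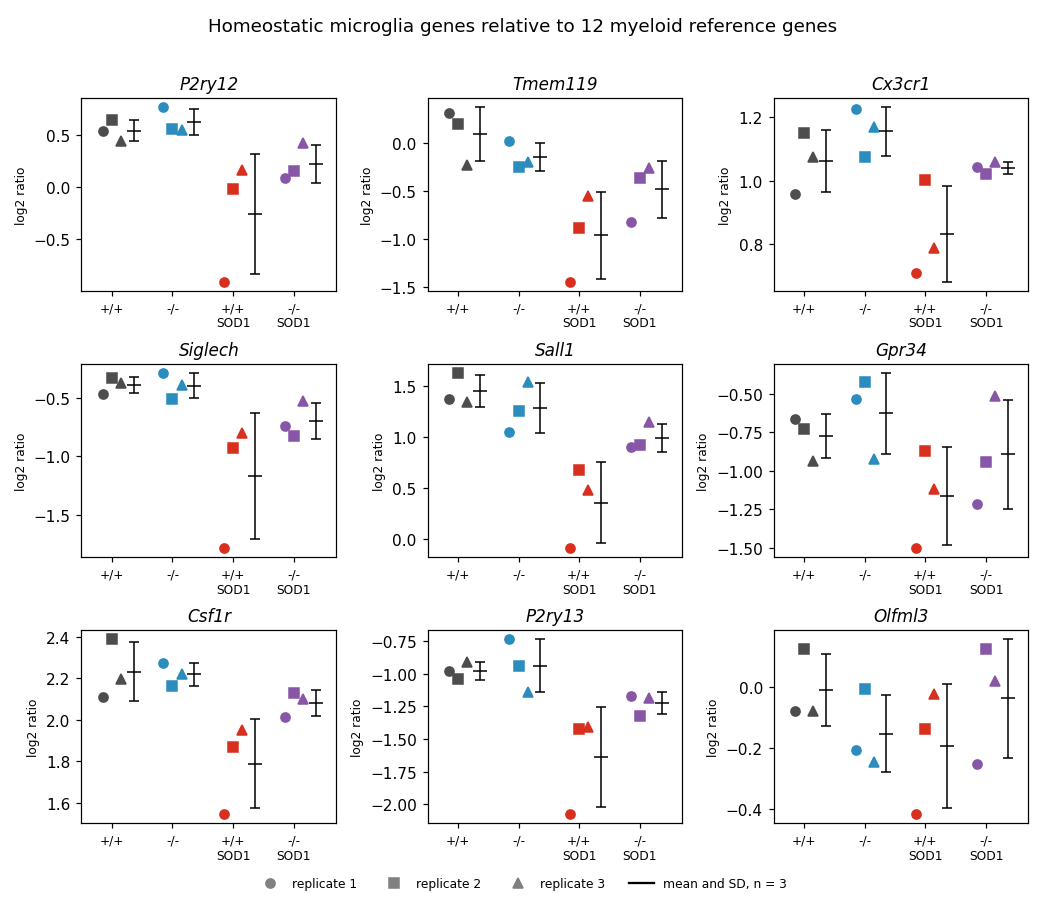
Log2 ratio (y axis) of each homeostatic microglia gene to the mean of 12 myeloid reference genes in the same library, by genotype (x axis; symbols mark the replicate number, bars the mean and SD of 3 mice; y axes differ between panels and do not start at 0). The difference of the means was furthest from 0 in Plekhg5+/+ SOD1-G93A mice for Sall1 (-1.09 against wild type) and Tmem119 (-1.06) and nearest to 0 for Olfml3 (-0.18), and the first library of that genotype was the lowest for each gene.

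Of 10 ligands and partners of these receptors, 2 rose in SOD1-G93A mice with intact Plekhg5. Csf1, the ligand of Csf1r, went from 54.9 ± 3.10 to 82.0 ± 17.6 CPM (n = 3 each), a log2 fold change of 0.58 ± 0.116 with an adjusted p of 0.0256. Tyrobp, the signalling adaptor with which Siglech associates, went from 17.99 ± 3.02 to 57.6 ± 27.4 CPM, a log2 fold change of 1.68 ± 0.269 with an adjusted p of 0.0153. Il34, the other ligand of Csf1r, had 15.8 ± 1.73 and 14.97 ± 1.47 CPM (adjusted p = 0.781). Cx3cl1 had 231 ± 11.2 and 210 ± 12.1 CPM, a log2 fold change of -0.14 ± 0.0629 (adjusted p = 0.274). The Cx3cl1 libraries were all lower with the transgene (197.5 to 221.6 CPM) than in wild type (222.6 to 243.6 CPM), with an unadjusted p of 0.0493 (edgeR). The receptor gene Cx3cr1 thus rose, while the ligand gene was slightly lower and did not pass. The others were Entpd1 and Nt5e, which break down extracellular nucleotides, Pla1a, Abhd16a and Abhd12 of lysophosphatidylserine metabolism, and Bmp4, and their log2 fold changes lay between -0.24 and 0.21. In double mutants Csf1 had 60.7 ± 4.12 CPM and Tyrobp 30.0 ± 3.81 CPM, with log2 fold changes of -0.43 and -0.94 against Plekhg5+/+ SOD1-G93A (adjusted p = 0.402 and 0.412). Cx3cl1 had 226 ± 1.18 CPM there, with a log2 fold change of 0.11 against Plekhg5+/+ SOD1-G93A (edgeR, adjusted p = 0.611).

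Of 10 genes for TGF-beta signalling and the transcription factors of microglial identity, 5 rose in SOD1-G93A mice with intact Plekhg5, with a median log2 fold change of 0.73 over the list. They were Irf8 at 1.64 ± 0.283, Spi1 at 1.27 ± 0.222, Tgfb1 at 1.04 ± 0.196 and the receptors Tgfbr1 at 0.77 and Tgfbr2 at 0.69. Without the first Plekhg5+/+ SOD1-G93A library, 5 genes of the list passed and its median was 0.45. Sall1, which depends on TGF-beta in microglia, did not pass in the same comparison. Of 10 further homeostatic genes, 4 rose (median 0.63), among them Fcrls, an Fc receptor-like gene, at 2.26 ± 0.399, and the nucleotide receptor P2ry6 at 1.10, and 2 did without the first Plekhg5+/+ SOD1-G93A library. In the first of these lists, the median on loss of Plekhg5 in SOD1-G93A mice was -0.38. Without that library it was -0.13, with 4 of the 10 positive. Loss of Plekhg5 in SOD1-G93A mice gave 0 calls with edgeR in the first of these lists, where 4 had an unadjusted p under 0.05 and DESeq2 called 1, and 1 call in the second. That one, the fructose transporter Slc2a5, was lower with a log2 fold change of -1.46 (adjusted p = 0.00576) and was also lower on loss of Plekhg5 without the transgene, at -1.44. Slc2a5 is on chromosome 4 at a distance of 1.93 Mb from Plekhg5, while none of the 9 members is on that chromosome. The median of the further homeostatic genes on loss of Plekhg5 in SOD1-G93A mice was -0.64, with 1 of the 10 positive. Of the 10, 7 had an unadjusted p under 0.05, and DESeq2 called 1 lower, and 3 with the prior. The shares of all genes were 8.64%, 0.352% and 0.566%. Without the first Plekhg5+/+ SOD1-G93A library the median was -0.45, and 5 had an unadjusted p under 0.05.

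The disease-associated genes had the highest median of the lists examined in SOD1-G93A against wild-type mice. Of 15, 12 rose in SOD1-G93A mice with intact Plekhg5, with a median log2 fold change of 1.73 against 0.65 for the 9 homeostatic genes, and examples were Lgals3 at 2.59, Gpnmb at 3.58 and Trem2 at 1.79. Their sum was 2038 to 2272 CPM in wild type and 3057 to 5806 CPM in Plekhg5+/+ SOD1-G93A mice. In double mutants it was 2538 to 2701 CPM, and 0 of the 15 passed against Plekhg5+/+ SOD1-G93A with edgeR, 11 having an unadjusted p under 0.05. DESeq2 called 2 of the 15 lower, and 6 with the prior, against 0.352% and 0.566% of all genes in either direction. Without the first Plekhg5+/+ SOD1-G93A library, 10 of the 15 passed in the first comparison (median 1.16), and the median on loss of Plekhg5 was -0.30. With all libraries the median on loss of Plekhg5 was -0.85, near the -0.83 of the myeloid reference. Without that library the reference, at -0.45, was lowered more.

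**Figure D4:**
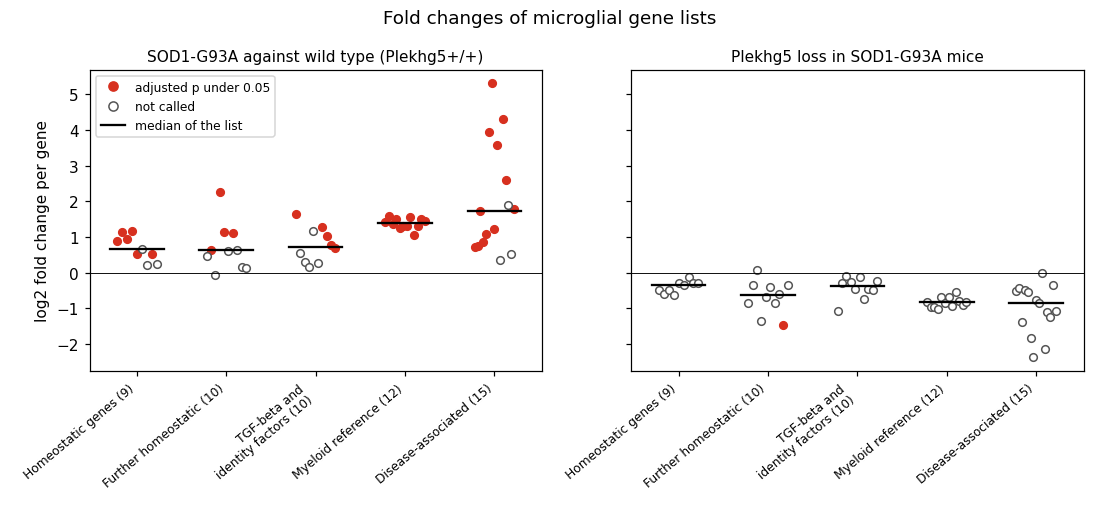
Log2 fold change of each gene (y axis) in the homeostatic genes and 4 further microglial lists (x axis, number of genes in brackets), for SOD1-G93A against wild type (left) and loss of Plekhg5 in SOD1-G93A mice (right). Filled circles mark an adjusted p under 0.05 and lines the median of the list, which on the left is 0.65 for the homeostatic genes, 1.38 for the myeloid reference and 1.73 for the disease-associated genes.

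Genes of other cells that could carry some of the members were also examined in SOD1-G93A against wild-type mice. Of 7 border macrophage genes tested, 1 rose (Ms4a7, log2 fold change 2.58) and the median was -0.25, with a summed level of 12.6 to 21.6 CPM in wild type and 10.6 to 21.4 CPM in Plekhg5+/+ SOD1-G93A mice. Of 8 genes of monocytes and neutrophils 0 passed with edgeR or DESeq2, 0 had an unadjusted p under 0.05, and their sums were 19.9 to 68.4 and 43.7 to 131.8 CPM. Their median log2 fold change was 1.32, with 6 of the 8 positive. The spread was wide, as for Ly6g at 1.88 ± 1.04, so a rise was neither shown nor excluded. The T lymphocyte genes together did not exceed 1.55 CPM in wild type and 3.18 CPM in transgenic mice, Cd3e, Cd3g and Cd3d were too low to test, and 0 of 3 passed with edgeR and 1 with DESeq2, 1 having an unadjusted p under 0.05. All 3 tested were positive, with a median log2 fold change of 1.22. Astrocyte genes rose in 2 of 8 (Gfap at 1.23 and Sox9 at 0.81), with a summed level of 5873 to 6034 CPM in wild type and 7220 to 10469 CPM in Plekhg5+/+ SOD1-G93A mice, endothelial genes fell in 1 of 8 (Ly6c1 at -0.56, and 0 of 8 without the first Plekhg5+/+ SOD1-G93A library), and oligodendrocyte and motoneuron genes passed in 0 of 8 each with edgeR, with 3 and 6 at an unadjusted p under 0.05 and 0 and 3 (lower) with DESeq2. On loss of Plekhg5 in SOD1-G93A mice, 0 genes of these cells passed with edgeR. The 8 endothelial genes were all positive in their log2 fold change (median 0.48, 6 at an unadjusted p under 0.05, and 1 called by DESeq2 with the prior), with sums of 198 to 243 CPM in Plekhg5+/+ SOD1-G93A mice and 270.3 to 332 CPM in double mutants. The 8 motoneuron genes were also all positive (median 0.23, 3 at an unadjusted p under 0.05), while 6 of the 8 astrocyte genes were negative (median -0.26, 3 at an unadjusted p under 0.05, Gfap at -0.62). Without the first Plekhg5+/+ SOD1-G93A library these medians were 0.52, 0.16 and -0.065. No list of these cells was at 0, and their part in the members' levels was not tested.

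Across the 12 libraries the members largely varied together. Pearson's r between a member's log2 CPM and the mean of the others, each standardised, was 0.95 for Csf1r, 0.94 for Cx3cr1, 0.91 for Gpr34 and P2ry13, 0.90 for Olfml3, 0.89 for Siglech and 0.83 for P2ry12. It was 0.66 for Sall1 and 0.60 for Tmem119, the members that also moved least. These are descriptions over libraries that share 4 genotypes, and no p is given for them. Among genes outside every list, the 5 whose pattern was most like the mean of the 9 members were Rnaset2a (r = 0.97), Rnaset2b (r = 0.97), Tmem176b (r = 0.97), Hspb6 (r = 0.96) and Pdcd1 (r = 0.96). Rnaset2a and Rnaset2b are near-identical copies whose reads were shared as fractions in 10 and 11 of the 12 libraries, so they count as 1 uncertain pattern. Pdcd1 is a weakly expressed gene with 0.240 ± 0.0809 CPM in wild type and 3.21 ± 2.68 CPM in Plekhg5+/+ SOD1-G93A mice.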

How the data were processed

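Spinal cord RNA was sequenced from 12 mice, 3 of each genotype, and grouped by the genotype in the labels. According to the study's methods and processing notes, the authors trimmed reads with Cutadapt version 2.4, mapped them with STAR version 2.7.2b to GRCm38.p6 plus the human SOD1 cDNA, and counted them by strand on RefSeq exons with featureCounts version 1.6.4, splitting shared reads into fractions. The values deposited by the authors are expected counts per gene, without normalization. Between 17.3% and 18.1% of the entries of a library were not whole.

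Counts were rounded, filtered with filterByExpr (20155 of 45906 genes kept), normalized with TMM and fitted with robust quasi-likelihood models over the 4 genotypes in edgeR version 4.0.16 (R version 4.3.3), with Benjamini-Hochberg adjustment over all genes tested and a threshold of 0.05. CPM and RPKM use TMM library sizes, and log2 CPM a prior count of 2. RPKM uses the exon length of the deposited table. Ratios to the myeloid reference were compared by exact permutation, two-sided. As alternatives, DESeq2 (version 1.42.0, in both forms of its fold change prior) was run, besides edgeR with its size factors, other filters, a threshold of 0.1, a fit of the compared genotypes alone, a replicate block, a Y-transcript covariate, parts of the myeloid reference alone, a prior count of 0.5 and each library left out. Leaving out the first Plekhg5+/+ SOD1-G93A library for the other lists was added after seeing the data.

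The members and lists were chosen with earlier results of these data known. Named genes are all members, Plekhg5, SOD1, the ligands and partners, the 3 genes of lowest p in a list for SOD1-G93A against wild type, and the 5 most like the members. P2ry6, Tgfbr1, Tgfbr2, Slc2a5, Pacsin1, Tcf4, Cox6a2, the T lymphocyte genes named and the called genes of other cells were named after their values were seen. Some genes that this rule would name are not reported here. Replicate numbers do not pair mice: deviations of same-numbered libraries correlated between -0.163 and 0.318 over 18 pairs. Over all genes tested, no pair of libraries of the same genotype agreed within counting noise. P-values measure the spread between the mice of these libraries.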

Additional observations from a re-analysis of the deposited data

Results flagged for a closer look

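On loss of Plekhg5, 8 of the 9 members had fitted log2 fold changes above 0 without the transgene and below 0 with it, and Cx3cr1 was the one whose libraries did not overlap in either setting. Its Plekhg5-/- libraries (47.8 to 64.8 CPM) were all above wild type (41.7 to 47.0 CPM), while its double mutant libraries (59.2 to 69.3 CPM) were all below those of Plekhg5+/+ SOD1-G93A mice (74.2 to 132.69 CPM). The interaction was -0.92 ± 0.264 on the log2 scale, and did not pass (edgeR, adjusted p = 0.401). It was -0.62 without the first Plekhg5+/+ SOD1-G93A library, which holds the highest of these values. The same change of sign was seen in the myeloid reference, where all 12 genes were above 0 without the transgene and below 0 with it. Its median interaction was -1.13.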

How the results depend on the processing

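For SOD1-G93A against wild type, the number of homeostatic genes called was 6, and 7 with a threshold of 0.1, DESeq2 with or without a prior, or the replicate block, 5 with DESeq2 size factors or at least 10 counts, and 4 with no filter. The share of all genes called was 2.47% in the main fit, 5.68% at 0.1, 5.81% with DESeq2 and 5.94% with its prior. It was 3.13% with the replicate block, 2.47% with size factors, 2.69% with at least 10 counts and 1.41% with no filter. The number of homeostatic genes called was 0 when only the 2 genotypes entered the fit, when 3 of all genes passed, and there the adjusted p of the 6 lay between 0.0755 and 0.0923. It lay between 0 and 7 with 1 library left out, at 0 without the first or second Plekhg5+/+ library and 3 without the first Plekhg5+/+ SOD1-G93A library. In these fits, in order, 0.0195%, 0.00976% and 1.09% of all genes were called. The share was 3.62% without the first Plekhg5-/- library, when 7 members passed. The median was 0.40 with the DESeq2 prior, which shrinks fold changes, and 0.55 to 0.72 with 1 library left out. P2ry12 lost its call with size factors and with both other filters. With the Y-transcript covariate the number was 6, when 3.04% of all genes were called. For loss of Plekhg5 in SOD1-G93A mice, 1 gene was called with the DESeq2 prior (Olfml3, -0.43, adjusted p = 0.0279) and 0 otherwise. With that prior, 0.566% of all genes were called there. For double mutants against wild type, 3 were called with those genotypes alone, as were 0.579% of all genes. The median interaction ranged from -0.81 to -0.43 with 1 library left out.

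Signs turned only for differences near 0. Tmem119 was at 0.020 for loss of Plekhg5 without the transgene, at 0.013 for the transgene without Plekhg5 and at 0.032 for double mutants against wild type with the Y-transcript covariate, and at 0.0012 for the transgene without Plekhg5 with the replicate block. Gpr34 was at -0.017 for the transgene without Plekhg5 with the Y-transcript covariate. With 1 library left out, Tmem119 ranged from -0.20 to 0.15 for loss of Plekhg5 without the transgene, from -0.15 to 0.16 for the transgene without Plekhg5 and from -0.15 to 0.13 for double mutants against wild type. For the transgene without Plekhg5, P2ry12 ranged from -0.23 to 0.072, Siglech from -0.077 to 0.17, Gpr34 from -0.17 to 0.16 and P2ry13 from -0.17 to 0.21. The cause was not tested.

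The replicate block, a pairing that the labels do not support, raised the calls for SOD1-G93A against wild type from 6 to 7 and left 0 in the other comparisons. Over all genes it raised the share called for SOD1-G93A against wild type from 2.47% to 3.13%. Members' median ratios to the myeloid reference kept their sign with C1qa, C1qb and C1qc (-0.73 and 0.53), with Aif1 (-0.73 and 0.43) and with a prior count of 0.5. These genes are themselves part of the reference. Relative to the full reference, 98.8% of all genes were negative for SOD1-G93A against wild type. For loss of Plekhg5 in SOD1-G93A mice 1.15% were. The kept sign therefore says little about the members. Over all genes tested, libraries of 1 genotype differed by 5.68 to 27.5 times counting noise (chi-square per degree of freedom). The members had 288 to 7621 counts per library, and their own spread was not tested against counting noise.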
